A study of Mus musculus with 5 samples.

Results

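The autophagy and lysosome genes described here were 38 genes chosen by name from the per-library expression tables, out of 46078 genes listed in each. They cover the path from the transcription factors of the lysosome, through the proteins that build and load an autophagosome, to the membrane proteins and digestive enzymes of the lysosome. Values were read as TPM, the share of a gene among all transcripts after correction for its length, scaled to the same total in each library. RNA was taken from neural stem and precursor cells (NPC) of the subventricular zone, the niche beside the lateral ventricles of the adult mouse forebrain. The cells came from C57BL/6 mice with no mutation, labelled female and aged 5 to 8 weeks, while the study's methods text gives an older age. They were grown as spheres with EGF and FGF, plated on poly-D-lysine and given PBS as a sham exposure, with RNA isolated 1 h later (replicates 1 and 2) or 8 h later (replicates 13, 14 and 15). Every library thus shares strain, culture and PBS, and the labelled groups differ in time alone. The study's methods count each animal as a biological replicate of subventricular zone cells, but the labels do not tie these libraries to animals or cultures, so the p-values measure the spread between libraries. The H2O2-exposed cells of the project were not analysed here.

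Autophagy encloses cytoplasm in a double membrane, the autophagosome, which then fuses with the lysosome so that acid hydrolases can digest the contents. A kinase complex around ULK1 starts the membrane, a lipid kinase complex around BECN1 and PIK3C3 marks it, and a conjugation system then attaches proteins of the ATG8 family (LC3 and GABARAP) to its lipid. TFEB and TFE3 activate many lysosomal genes and are held in the cytoplasm by mTORC1 when nutrients are plentiful. In the adult subventricular zone, quiescent neural stem cells are known for larger lysosomes than activated ones. RNA levels do not measure autophagic flux, and in bulk RNA fewer cells of a type cannot be told apart from less RNA per cell.

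TFEB and TFE3 bind DNA at sites built around the letters CACGTG, so the start regions of the genes were read for these letters first. RefSeq promoter windows (GRCm38.p6), from 250 bases before to 50 bases after a transcript start, were found for 30 of the 38 genes. Those without a window were Rb1cc1, Becn1, Pik3c3, Atg12, Atg16l1, Map1lc3a, Npc1 and Ctsb. CACGTG, which reads the same on both strands, was found for 10 of the 30 genes (33.3%), namely Lamp1, Mcoln1, Ctsa, Ctsd, Ctsl, Gaa, Atg3, Atg5, Atg7 and Atg14. The same letters were found in 7.15% of all 32851 windows and for 11.9% of 9447 genes that have a window and average at least 1 TPM. The longer TCACGTGA, which contains CACGTG, was found for Ctsa, Ctsd, Mcoln1 and Atg3 (4 of 30, 13.3%), in 0.974% of all windows and for 2.23% of the 9447 expressed genes. A match of letters is a description and not a binding site. The 100 bases before the start are shown for the 4 genes with TCACGTGA and for Lamp1, whose window held CACGTG 4 times, each read 5′ to 3′ on the strand of the gene with CACGTG in capitals. They lie at chr8:13159061-13159160 (Lamp1, plus strand), chr8:3500419-3500518 (Mcoln1, plus), chr2:164833673-164833772 (Ctsa, plus), chr7:142387828-142387927 (Ctsd, minus) and chr16:45158729-45158828 (Atg3, plus).
Lamp1: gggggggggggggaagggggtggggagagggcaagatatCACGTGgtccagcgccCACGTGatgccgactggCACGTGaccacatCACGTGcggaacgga
Mcoln1: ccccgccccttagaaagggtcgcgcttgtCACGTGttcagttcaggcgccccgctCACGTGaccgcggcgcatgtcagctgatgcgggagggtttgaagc
Ctsa: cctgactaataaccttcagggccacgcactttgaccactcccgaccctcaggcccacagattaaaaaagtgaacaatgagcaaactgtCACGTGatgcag
Ctsd: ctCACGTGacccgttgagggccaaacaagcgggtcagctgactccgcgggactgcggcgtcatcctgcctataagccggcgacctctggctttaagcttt
Atg3: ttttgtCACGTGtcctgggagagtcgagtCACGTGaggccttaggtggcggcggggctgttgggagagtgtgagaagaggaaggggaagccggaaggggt

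Some facts about the libraries touch every value that follows. The labels carry library identifiers in 2 number series, whose meaning was not given in the sources used here. Series 1 holds both 1 h libraries and 8 h replicate 14, and series 2 holds 8 h replicates 13 and 15. Xist, the transcript of the inactive X chromosome, stood at 165.3 and 199.7 TPM in series 2 and at no more than 0.0611 TPM in series 1, while 4 Y-linked genes summed to between 137.6 and 180.9 TPM in series 1 and to at most 0.0253 TPM in series 2. By the labels, series and sex transcripts therefore divide the TPM tables alike and cannot be told apart, and 3 libraries go against the label female. The identifiers are also the names of the count columns, which cross with the tables as described below. The series of each 8 h table, and every series difference given here, thus rests on the label of the table. Mitochondrial genes held 10.7 to 11.1% of TPM in series 1 and 6.23 and 6.30% in series 2. The labelled cell type was checked against its markers. All 11 neural stem and precursor markers averaged at least 1 TPM, with Nes between 690.1 and 784.4 TPM and Sox2 between 181.0 and 227.7 TPM, whereas 10 of 11 microglia and macrophage markers had a mean below 1 TPM, with Aif1, Tmem119, C1qa, C1qb and Tyrobp at 0 in all 5 libraries.

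A separate count table listed 7599 genes, including 34 of the 38 (all but Wipi1, Atg4b, Gabarapl2 and Npc1), with column totals from 13988166 to 18572154 counts. Its columns and the TPM tables of the same name did not all hold the same library, and whether columns or tables are misnamed was not tested. Columns and tables were read relative to 1 h, and each pair was centred on its median gene difference. The column named 8 h replicate 13 was then within 0.1 on the log2 scale of the TPM table of 8 h replicate 14 for 78.2% of 7342 genes, against 24.7% for its own. The column named 8 h replicate 15 matched the table of 8 h replicate 13 (78.3%, against 40.9% for its own), and the column named 8 h replicate 14 had a share of at most 39.0% with any table. The 34 genes followed the same crossing, with 30 of 34 and 26 of 34 within 0.1 in the 2 crossed pairs. All these columns and tables are labelled 8 h, so the time comparison keeps its groups only if the labels hold for them as a set. The series comparison rests further on the label of each 8 h table. TPM leads the results because its tables list all genes, and counts stand beside it under the column names.

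All 38 genes were expressed, and most of them well. They took between 0.423% (8 h replicate 14) and 0.443% (1 h replicate 1) of all TPM in a library. The median of their mean levels was 48.8 TPM, against 21.6 TPM over the 13870 genes that averaged at least 1 TPM, and 32 of 38 lay above the middle of that distribution. In the count table they were covered by 135 counts (Tfeb) to 20499 counts (Psap) per column. Their spread over the 5 libraries was small, with a median coefficient of variation of 11.4%, against 15.4% for all genes tested. It ranged from 4.39% for Pik3c3 to 31.0% for Map1lc3b, and 14 genes stayed at or below 10%. Tfeb, Rb1cc1, Hexa and Map1lc3b were the 4 genes above 20%.

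**Figure D1:**
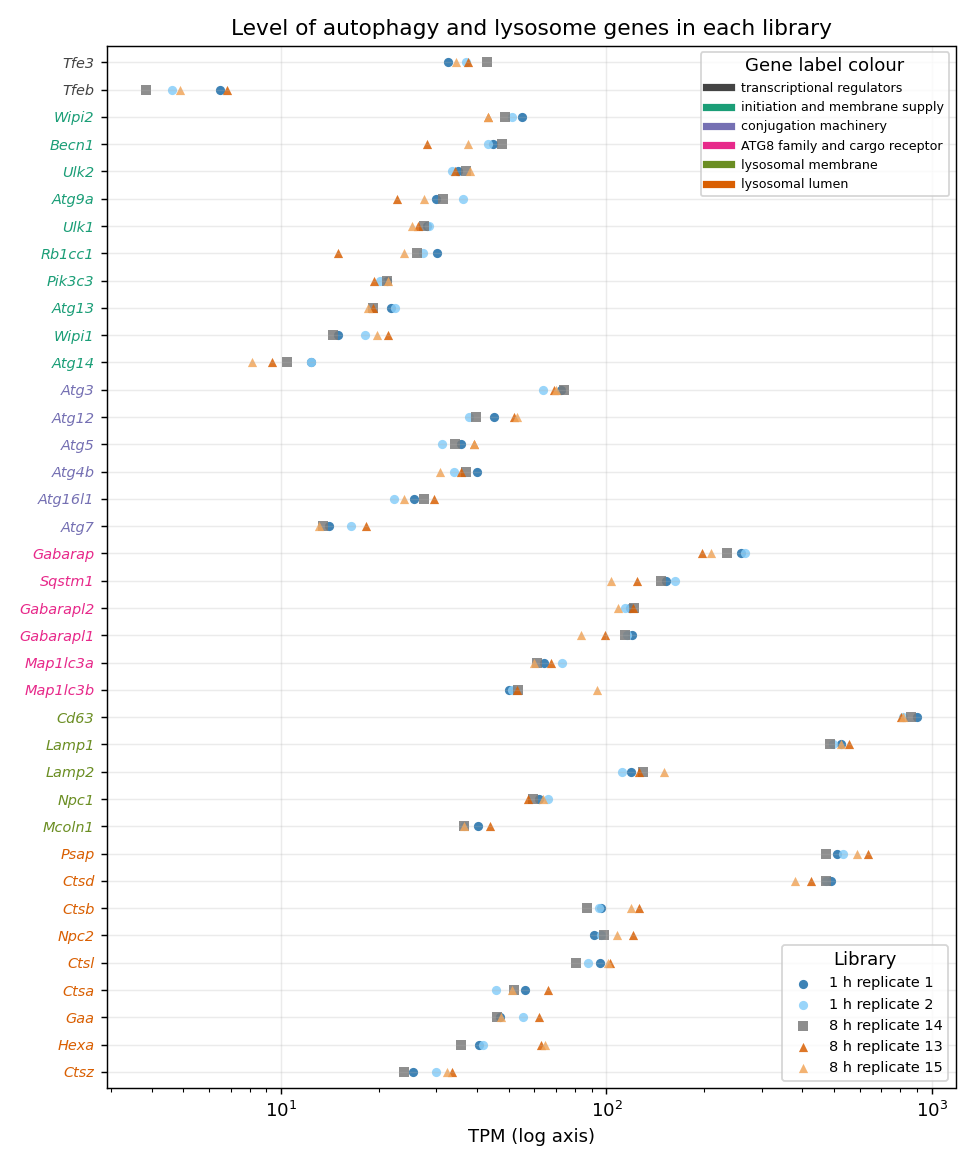
TPM of each of the 38 genes (log axis) in the 5 libraries, with genes ordered by mean level within 6 roles. Points of a gene lie close together for most genes, while 8 h replicate 15 (light triangle) stands to the right for Map1lc3b at 93.7 TPM and both series 2 libraries (triangles) stand to the right for Hexa at 63.0 and 64.6 TPM.

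The transcriptional regulators differed from each other in level. Tfe3 was read at 32.6 and 37.1 TPM at 1 h and at 43.1, 37.4 and 34.6 TPM in 8 h replicates 14, 13 and 15. Tfeb was read at 6.48 and 4.62 TPM at 1 h and at 3.84, 6.80 and 4.90 TPM in the same order at 8 h. Every library thus held more Tfe3 than Tfeb per unit length, and for both genes the 1 h and 8 h values overlapped. Tfeb had the lowest mean level of the 38 genes (5.33 TPM).

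The genes of initiation and membrane supply held a middle range, from a mean of 10.5 TPM for Atg14 to 48.4 TPM for Wipi2. Of the kinase complex, Ulk1 lay between 25.3 and 28.4 TPM, its relative Ulk2 between 33.5 and 38.2 TPM and Atg13, an adaptor of the complex, between 18.4 and 22.4 TPM. Rb1cc1, which encodes the scaffold FIP200, was read at 30.2 and 27.4 TPM at 1 h and at 26.1, 15.0 and 23.9 TPM in 8 h replicates 14, 13 and 15. The low value of 8 h replicate 13 set the spread of Rb1cc1, and all 8 h values were below both 1 h values. Atg9a, the membrane protein of the vesicles that seed the autophagosome, lay between 22.7 and 36.3 TPM.

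Of the lipid kinase complex, the catalytic subunit gene Pik3c3 stayed between 19.3 and 21.3 TPM. Becn1, its regulatory partner, was read at 45.0 and 43.2 TPM at 1 h, at 47.7 TPM in 8 h replicate 14 and at 28.0 and 37.5 TPM in 8 h replicates 13 and 15. Becn1 was thus lowest in both series 2 libraries, while the third 8 h library was above both 1 h libraries. Atg14, which directs the complex to sites of autophagosome formation, was read at 12.4 TPM in each 1 h library and at 10.4, 9.38 and 8.13 TPM in 8 h replicates 14, 13 and 15. Wipi1 and Wipi2 bind the lipid that the complex makes, and they lay between 14.5 and 21.4 TPM and between 43.2 and 55.0 TPM.

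The conjugation machinery held middle levels, from a mean of 15.0 TPM for Atg7 to 69.9 TPM for Atg3. Atg3, the E2-like enzyme, lay between 64.0 and 74.0 TPM, and Atg7, the E1-like enzyme, between 13.1 and 18.2 TPM. Atg12, which is joined to ATG5, lay between 37.9 and 53.0 TPM, Atg5 between 31.1 and 39.2 TPM and Atg16l1, which binds the conjugate, between 22.3 and 29.4 TPM. Atg4b, the protease that trims ATG8 proteins, lay between 30.7 and 40.1 TPM. For each of the 6 genes the 1 h and 8 h values overlapped.

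Gabarap was the most abundant transcript of the ATG8 family, whose proteins are attached to the autophagosome membrane. It was read at 258.4 and 266.5 TPM at 1 h and at 235.3, 196.1 and 209.9 TPM in 8 h replicates 14, 13 and 15, so that no values overlapped. Gabarap made up 42.3 and 43.0% of the summed TPM of the 5 family members at 1 h and 40.2, 36.6 and 37.8% at 8 h. Map1lc3b, which encodes the widely used marker LC3B, was read at 50.2 and 51.2 TPM at 1 h and at 53.5, 53.0 and 93.7 TPM at 8 h in the same order. It was close in 4 libraries and stood high in 8 h replicate 15, where its share of the family was 16.9% against 8.22 to 9.90% in the others. Gabarapl1 lay between 83.6 and 119.8 TPM, Gabarapl2 between 108.8 and 121.2 TPM and Map1lc3a between 59.7 and 73.2 TPM. Sqstm1 encodes p62, a receptor that carries ubiquitin-tagged cargo to LC3. It was read at 152.4 and 162.4 TPM at 1 h and at 146.9, 123.9 and 103.0 TPM in 8 h replicates 14, 13 and 15, without overlap.

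The lysosomal membrane genes included the transcript with the highest mean of the 38, Cd63, a tetraspanin of late endosomes, which lay between 802.9 and 899.7 TPM. Lamp1, a main glycoprotein of the lysosomal membrane, lay between 485.6 and 556.0 TPM. Its relative Lamp2 was read at 118.8 and 111.8 TPM at 1 h and at 129.1, 126.3 and 150.3 TPM in 8 h replicates 14, 13 and 15, with all 8 h values above both 1 h values. Npc1, which exports cholesterol from the lysosome, lay between 57.5 and 66.1 TPM. Mcoln1, the gene of a lysosomal calcium channel, lay between 36.4 and 43.8 TPM.

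Within the lysosome, Psap and Ctsd stood far above the others. Psap, the precursor of the saposins that present lipids to enzymes, lay between 474.1 and 635.1 TPM, and the aspartic protease gene Ctsd between 380.1 and 491.1 TPM. Hexa encodes the alpha subunit of beta-hexosaminidase A, which degrades GM2 ganglioside. Hexa was read at 40.6 and 41.8 TPM at 1 h, at 35.7 TPM in 8 h replicate 14 and at 63.0 and 64.6 TPM in 8 h replicates 13 and 15. Ctsb, a cysteine protease gene, was read at 96.1 and 94.97 TPM at 1 h and at 87.2, 126.2 and 118.8 TPM in the same order. For both genes the 8 h libraries lay on both sides of the 1 h libraries, with series 2 high. Npc2, which hands cholesterol to NPC1, was read at 91.4 and 96.0 TPM at 1 h and at 98.6, 121.0 and 107.5 TPM at 8 h, without overlap. The protease genes Ctsl, Ctsa and Ctsz lay between 80.7 and 102.5 TPM, 45.8 and 65.96 TPM, and 23.9 and 33.6 TPM, and Gaa, the gene of acid alpha-glucosidase, between 46.1 and 61.9 TPM.

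No gene of the 38 passed the test of 8 h against 1 h. Differences on the log2(TPM + 1) scale were tested over 13870 genes by limma, with an intensity trend and Benjamini-Hochberg adjustment, and calls needed an adjusted p no higher than 0.05 together with more than a 2-fold change. It called 0.0433% of all genes (6 of 13870) and 0 of 38 here, where the lowest adjusted p was 0.384. At an unadjusted p under 0.05 there were 2 of 38 genes, both lower at 8 h, against 12.3% of all genes (2.82% lower and 9.52% higher). These were Gabarap and Atg14. Gabarap differed by -0.30 ± 0.11 (SE) on the log2(TPM + 1) scale (limma adjusted p = 0.384) and was lower in 3 of 3 libraries at 8 h. Atg14 differed by -0.38 ± 0.15 (limma adjusted p = 0.396), also lower in 3 of 3. In counts scaled to the column total (CPM) both genes overlapped between times. Gabarap was at 245.2 and 260.2 CPM at 1 h and at 259.1, 240.1 and 179.6 CPM in the columns named 8 h replicates 14, 13 and 15. For Atg14 the values were 30.6 and 31.1 CPM at 1 h and 33.6, 25.6 and 21.2 CPM in the same order. With the identifier series as a term in the limma model, 0 of 38 genes had an unadjusted p under 0.05, against 9.06% of all genes, and the differences of Gabarap and Atg14 became -0.16 ± 0.10 and -0.23 ± 0.15. Leaving out 8 h replicate 14, after which time and series coincide, gave 14 genes at an unadjusted p under 0.05, against 37.4% of all genes. In the same fit 4 genes had an adjusted p no higher than 0.05 by limma (Gabarap, Sqstm1, Hexa and Ctsb), against 20.03% of all genes. With the fold change threshold added, 0 of 38 were called, against 573 of all 13901 genes in that fit. Leaving out 8 h replicate 13 or 8 h replicate 15 left 0 genes at an unadjusted p under 0.05, against 6.21% and 6.15% of all genes.

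In the fit without the identifier series, the size of a change that these libraries leave room for was limited for most genes. Because the series divides the 8 h group, the intervals of this fit do not bound a change with time apart from the series. For 37 of 38 genes the 95% interval of the log2 difference lay within 1 in either direction, that is within a 2-fold change, and for 26 it lay within 1.5-fold. Rb1cc1 was the exception at 2-fold, with an interval from -1.02 to 0.16. The median log2 difference of the 38 genes was 0.0075, with 20 above and 18 below 0, against a median of 0.10 for all genes tested. Scaling the libraries by median ratios moves the median of all genes to 0.0016, so that a gene at 0 on the TPM scale lies slightly below the middle gene. The median absolute difference was 0.14 for the 38 genes and 0.19 for all genes tested. With the series as a term, the difference of Tfeb became -0.42 ± 0.26 (SE) and that of Rb1cc1 -0.13 ± 0.26, and the intervals of that fit were not counted.

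**Figure D2:**
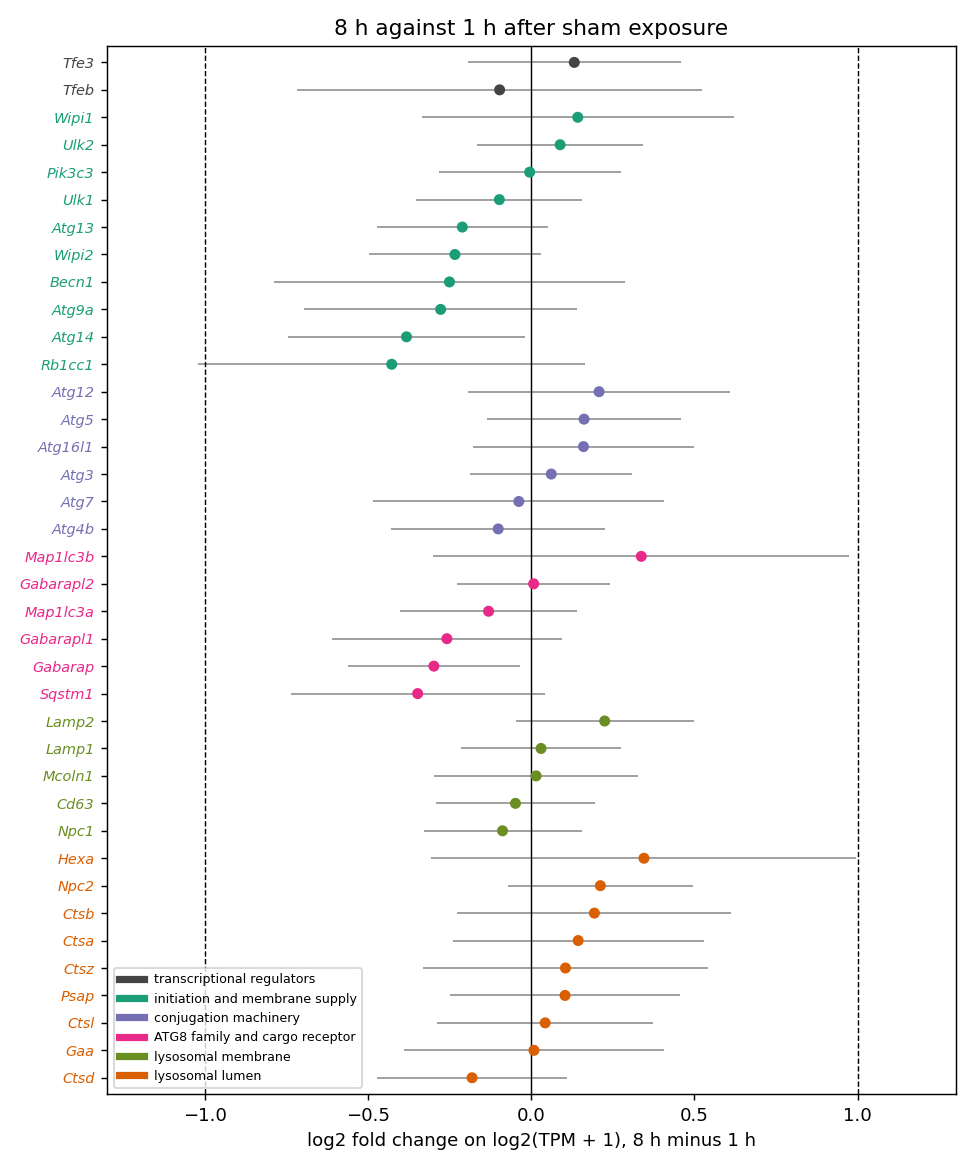
Difference between 8 h and 1 h for each of the 38 genes, on the log2(TPM + 1) scale, with points for the limma estimate and bars for its 95% interval, coloured by role. The fit did not hold the identifier series as a term. The intervals of Gabarap and Atg14 alone exclude 0, and only that of Rb1cc1 reaches past the dashed line at 1 in either direction.

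The values of 11 of 38 genes did not overlap between times, against 33.1% of all genes tested, of which 23.7% were higher at 8 h and 9.43% lower. Higher without overlap were Map1lc3b, Lamp2 and Npc2 (3 of 38), and lower were Ulk1, Atg13, Rb1cc1, Atg14, Wipi2, Gabarap, Gabarapl1 and Sqstm1 (8 of 38). By role, 5 of the 10 genes of initiation and membrane supply and 3 of the 6 genes of the ATG8 family and its cargo receptor were lower without overlap. The median differences of the roles ran from -0.22 for initiation and membrane supply to 0.11 for the conjugation machinery. The 10 initiation genes together summed to 293.6 and 293.2 TPM at 1 h and, for 8 h replicates 14, 13 and 15, to 284.2, 238.7 and 263.3 TPM. The ATG8 group summed to 763.4 and 782.5 TPM at 1 h and to 731.9, 659.5 and 658.7 TPM at 8 h. In both sums 8 h replicate 14 lay closest to the 1 h libraries, with which it shares the identifier series by its label. In the table of 8 h replicate 13, Becn1, Rb1cc1 and Atg9a had log2 ratios to 1 h of -0.66, -0.94 and -0.54. In the count column that this table matches best, they were at 118.1, 96.8 and 41.4 CPM (counts scaled to the column total). Their 1 h means were 115.3, 106.6 and 50.1 CPM. The fall of these genes in the initiation sum was thus smaller or absent in counts.

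Counts gave the same number of calls, with 0 of 34 genes between 8 h and 1 h by the quasi-likelihood test of edgeR and 0% of all 7590 genes tested. None of the 34 had an unadjusted p under 0.05 by edgeR, against 2.62% of all genes. DESeq2 likewise called 0 of 34, and 0 of all 7599 genes. It gave 0 of 34 at an unadjusted p under 0.05, against 2.99% of all genes. The lowest adjusted p by edgeR was 0.966. Becn1 was the only gene whose count columns did not overlap, at 114.0 and 116.5 CPM (counts scaled to the column total) for 1 h and 121.8, 122.7 and 118.1 CPM for the columns named 8 h replicates 14, 13 and 15, against 18.7% of all genes without overlap. Becn1 spanned 1.71-fold from its lowest to its highest TPM and 1.08-fold in CPM, while Hexa spanned 1.81-fold and 1.61-fold.

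**Figure D3:**
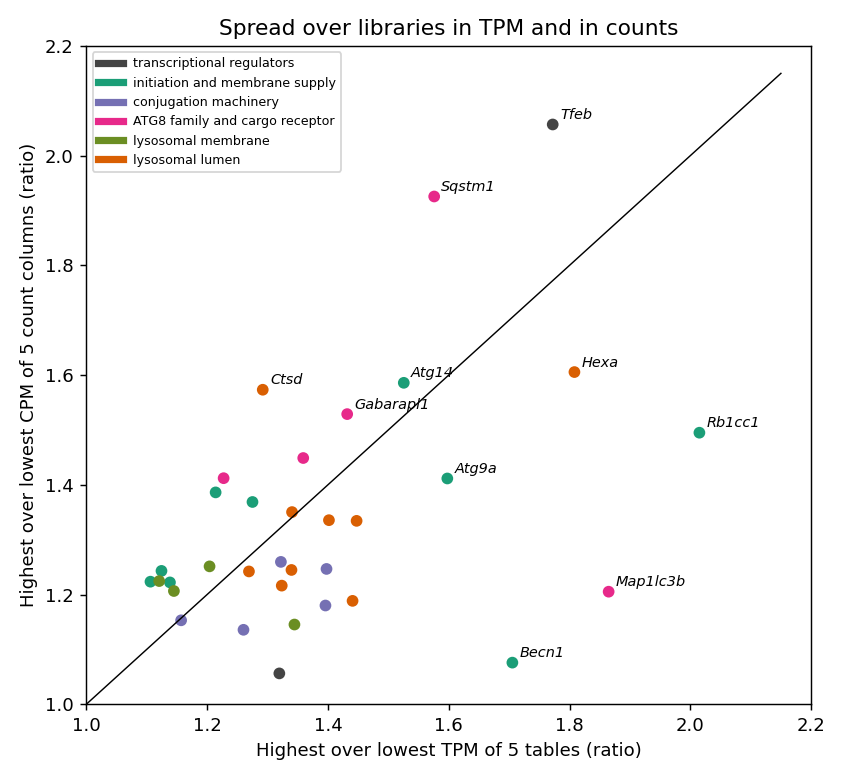
Highest over lowest value of the 5 libraries in TPM (horizontal axis, ratio) and of the 5 count columns in CPM (vertical axis, ratio) for the 34 genes in the count table, coloured by role, with names for genes past 1.5-fold on either axis. Points below the line of equality, such as Becn1 at 1.71 and 1.08, varied more in TPM than in counts, and Sqstm1 at 1.58 and 1.93 varied more in counts.

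Between the identifier series the 38 genes were called no more often than all genes, and the 2 that differed by adjusted p alone were the lysosomal enzyme genes Hexa and Ctsb. The series difference comes from the same limma model with time as a term, so it is set by 8 h replicates 13 and 15 against 8 h replicate 14, with the spread of all libraries. It called 0 of 38 genes with the fold change threshold, against 4.02% of all genes. At an adjusted p no higher than 0.05 alone, 2 of 38 differed, Hexa and Ctsb, both higher in series 2, against 9.09% of all genes (7.44% higher). Hexa was higher by 0.82 ± 0.11 (SE) on the log2(TPM + 1) scale (limma adjusted p = 0.0136) and Ctsb by 0.49 ± 0.10 (limma adjusted p = 0.0457), each in 2 of 2 libraries. Without 8 h replicate 13 the count was 0 of 38 (lowest adjusted p 0.0754) and without 8 h replicate 15 it was 0 of 38 (0.0836), in fits where the share of all genes fell to 1.06% and 0.608%. Without the filter on low values it was 0 of 38, as for all genes (0%), and with median-ratio scaling it was Hexa alone, against 6.39% of all genes. In counts, Hexa was at 55.5 and 57.3 CPM in the 1 h columns, at 48.2 CPM in the column that matches the table of 8 h replicate 14, at 77.3 CPM in the column that matches the table of 8 h replicate 13 and at 65.1 CPM in the column named 8 h replicate 14, which matches no table. Ctsb was at 321.0 and 322.9 CPM in the 1 h columns and at 291.0, 388.2 and 323.5 CPM in these 3 columns, so the unmatched column was level with 1 h for Ctsb. At an unadjusted p under 0.05 there were 9 of 38 genes against 26.4% of all genes. Higher were Hexa, Ctsb, Psap, Ctsz, Ctsl, Wipi1 and Atg12 (20.3% of all genes were higher), and lower were Becn1 and Sqstm1 (6.13%). In the count column that matches the table of 8 h replicate 13, Becn1 was at 118.1 CPM, against 114.0 and 116.5 CPM at 1 h. Sqstm1 was at 178.8 CPM in that column, against 258.2 and 253.5 CPM at 1 h. The number of the 38 genes at this unadjusted p was thus close to the share of all genes. With median-ratio scaling it turned to 2 higher and 8 lower, against 24.9% of all genes in both directions together. The median series difference of all genes was then -0.014.

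By role, 8 of 9 genes of the lysosomal lumen were above 0 in the series difference, with a median of 0.33, against a median of 0.11 for all genes tested. Ctsd was the exception at -0.24 ± 0.11. Of the 10 genes of initiation and membrane supply, 1 was above 0 (Wipi1, 0.47 ± 0.16), and their median was -0.13. The lumen median stayed above 0 with median-ratio scaling (0.20), under which 8 of 9 genes were above 0 and the median of all genes was -0.014. In all, 20 of 38 genes did not overlap between the series, 10 higher and 10 lower, against 53.3% of all genes (39.8% higher and 13.5% lower).

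**Figure D4:**
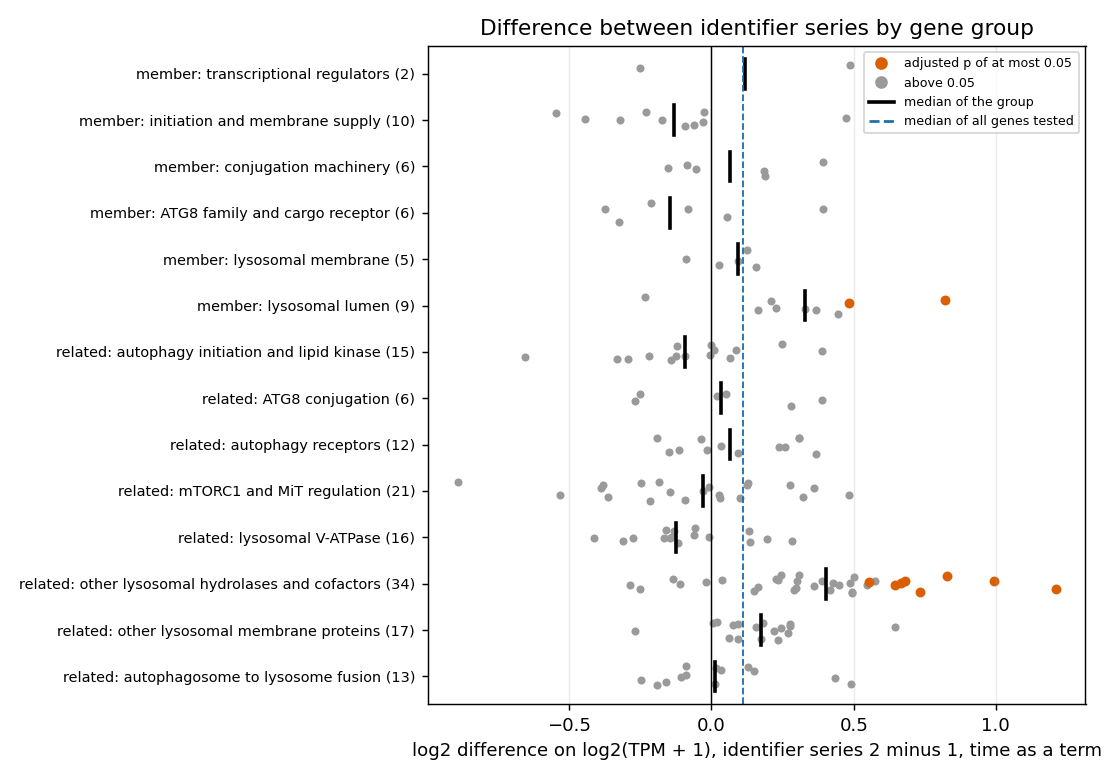
Difference between identifier series 2 and 1 with time as a term, on the log2(TPM + 1) scale, for the 38 genes by role and for 8 lists of related genes (number of genes in brackets). Black bars are medians of each group and the dashed line is the median of all genes tested (0.11). Orange points, with a limma adjusted p no higher than 0.05, occur in the lysosomal lumen (2 genes) and the other lysosomal hydrolases (8 genes).

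The rest of the pathway was read from 8 lists that hold 137 other genes, of which 134 averaged at least 1 TPM. Between 8 h and 1 h, 0 of 134 were called by limma, against 0.0433% of all genes, and 6 had an unadjusted p under 0.05, 4 higher and 2 lower, against 12.3% of all genes (9.52% higher and 2.82% lower), so that the share in the lists was below the background. The higher genes were Tmem41b, a lipid scramblase of the endoplasmic reticulum (0.33 ± 0.13 on the log2(TPM + 1) scale), Lamtor3, part of the lysosomal scaffold of mTORC1 (0.35 ± 0.13), Clcn7, a chloride transporter of the lysosome (0.33 ± 0.12), and Snap29, which helps fuse autophagosome and lysosome (0.35 ± 0.12). The lower genes were Uvrag, a BECN1 partner of the endosomal lipid kinase complex (-0.38 ± 0.13), and Fnip1, which helps recruit the mTORC1 regulator folliculin (-0.39 ± 0.13). Their limma adjusted p lay between 0.369 and 0.402. None of the lists of conjugation genes (6 tested), receptors (12), proton pump subunits (16) or hydrolases (34) had a gene with an unadjusted p under 0.05 for time.

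The series difference in the other lysosomal hydrolases and cofactors ran the same way as in the lumen genes. Of 34 tested, 29 were above 0, with a median of 0.40, against a median of 0.11 for all genes tested. At an unadjusted p under 0.05, 16 were higher and 0 lower, against 20.3% of all genes higher and 6.13% lower. At an adjusted p no higher than 0.05, 8 were higher (limma, against 7.44% of all genes higher). Among them, chosen after their values were seen, were Gm2a, Ctsc, Manba, Arsb, Arsa, Man2b1 and Asah1. Gm2a, the activator protein that presents GM2 ganglioside to beta-hexosaminidase A, was read at 22.2 and 25.9 TPM at 1 h, at 18.5 TPM in 8 h replicate 14 and at 44.6 and 43.5 TPM in 8 h replicates 13 and 15. Its series difference of 1.21 ± 0.14 (limma adjusted p = 0.0102) was past the fold change threshold. Hexa and Gm2a were thus each highest in both series 2 libraries and lowest in 8 h replicate 14. The count of 8 became 2 with median-ratio scaling, and 0 without 8 h replicate 13, without 8 h replicate 15 or without the filter on low values, fits in which the share of all genes also fell as given above, while between 28 and 31 genes stayed above 0 in these fits. Of the 16 subunit genes of the proton pump that acidifies the lysosome, 0 had an unadjusted p under 0.05 for the series by limma, against 26.4% of all genes. Their median was -0.13. With median-ratio scaling 4 had such a p, all lower, against 24.9% of all genes in both directions together.

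Other measures moved with the series in the same libraries. Of the 11 neural stem and precursor markers, 8 were higher in series 2 at an unadjusted p under 0.05, against 20.3% of all genes. At an adjusted p no higher than 0.05 by limma, 5 were higher (Slc1a3, Egfr, Pax6, Mki67 and Top2a), against 7.44% of all genes. The summed level of the 11 markers lay between 11538 and 12084 TPM in series 1 and at 13828 and 14988 TPM in series 2. Top2a, which is made by dividing cells, was read at 147.3 to 160.5 TPM in series 1 and at 324.2 and 375.8 TPM in series 2. The 5 neuron markers summed to between 270.3 and 459.6 TPM in series 1 and to 212.8 and 240.6 TPM in series 2. The 7 oligodendrocyte lineage markers summed to between 1613 and 2248 TPM in series 1 and to 2126 and 2442 TPM in series 2, although Mbp, the myelin gene among them, stood at 27.8 to 38.5 TPM and at 7.96 and 10.99 TPM. The part of these measures in the hydrolase values was not tested.

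Where the genes lie sets a limit on some of the readings. All 38 are annotated as protein coding, and 27 had the same GRCm38 coordinates in the tables as in the GENCODE vM21 annotation. For 8 genes (Atg9a, Map1lc3b, Sqstm1, Lamp1, Npc1, Ctsa, Ctsb and Ctsz) an exon overlaps that of another expressed gene, mostly on the opposite strand. The libraries were stranded, but the sources used here do not say whether strand was used in making the TPM, so reads of the partners may have been shared. Map1lc3b, for example, overlaps Zcchc14, and Ctsb overlaps Fdft1. The genes of the series result without such an overlap include Hexa (chr9:59539667-59565105, plus strand) and Psap (chr10:60277627-60302597, plus strand), and those of the time comparison include Gabarap (chr11:69991143-69994951, plus strand) and Atg14 (chr14:47540894-47568434, minus strand).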

How the data were processed

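Poly-A RNA was sequenced as stranded paired-end libraries. Within the nf-core/rnaseq pipeline the authors aligned reads to GRCm38 with STAR and counted them over genes with featureCounts, and they deposited whole read counts with no normalization. They also deposited TPM per gene for each library in the layout of StringTie. The program of the pipeline that made these values, and its version, were not given in the sources used here. Rows sharing a gene identifier were summed (15 to 20 more rows than genes per table). Groups came from the labels. Count columns were assigned by name (0 columns left unassigned).

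Values of log2(TPM + 1), a scale that understates changes of low genes, were tested with limma 3.58.1 in R 4.3.3 and its intensity trend, for genes averaging 1 TPM or more. Counts were tested with edgeR 4.0.16 (TMM, filterByExpr, quasi-likelihood) and DESeq2 1.42.0 (alpha 0.1). Both tests were checked on simulated data. Alternatives were pseudocount 0.1, no filter, median-ratio scaling, RLE size factors, the identifier series as a term or series 1 alone, no fold change threshold, and leaving out each library.

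The 38 genes, the related lists and the tests were chosen with earlier results of these data known. Named genes were the 38 and, of each related list, the genes called and up to 2 per direction with the largest change at an unadjusted p under 0.05 for time. Ctsc, Manba, Arsb, Arsa, Man2b1 and Asah1 of the hydrolase list fall outside this rule and were chosen after their values were seen. The marker lists covered neural stem and precursor cells, microglia and macrophages, oligodendrocyte lineage, neurons, endothelium and ependyma. The 5 endothelial markers summed to 11.8 to 15.4 TPM and the 4 ependymal markers to 16.3 to 27.5 TPM per library. Some genes of the lists are counted but not reported here by name. Coordinates are 1-based.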

Additional observations from a re-analysis of the deposited data

How the results depend on the processing

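Counts of genes called among the 38 (TPM) or the 34 (counts) stayed at 0 under all alternatives run, except that 2 genes differed between the identifier series without the fold change threshold. The count at an unadjusted p under 0.05 for time, 2 of 38 as reported (12.3% of all genes), was 1 without the filter on low values (10.1%), 4 with median-ratio scaling (11.2%), 0 with the series as a term (9.06%) and 0 in series 1 alone (8.08%). It ran from 0 to 14 when a library was left out, while the share of all genes ran from 4.81% to 37.4%. The median log2 difference for time, 0.0075 as reported, was -0.099 with median-ratio scaling, -0.066 with the series as a term, -0.066 in series 1 alone, and between -0.024 and 0.040 when a library was left out. With the series as a term and in series 1 alone, the time difference turned to -0.20 for Hexa, -0.13 for Ctsb and 0.11 for Becn1. The cause was not tested. Of 312 recomputed values of 36 single-gene differences, 302 kept their direction and side of the threshold. Another 6 turned (Hexa, Ctsb and Becn1 in both fits above, which give the same estimates), and 4 concerned the threshold for the series difference of Gm2a and Ctsc. Many values could not move: dropping the filter keeps every estimate, and dropping a 1 h library keeps every series difference. Adjusted p mattered only past the fold change threshold. The series difference of Ctsb was thus counted as kept although its limma adjusted p was 0.112 with median-ratio scaling. Where a library of the 1 h group is left out, the other takes its spread from the 8 h libraries, and the 8 h library of series 1 alone takes it from the 1 h libraries. No paired analysis was possible because the 1 h and 8 h groups share no replicate number. With 2 and 3 libraries, and without the series as a term, the 95% intervals for time were 0.468 to 1.303 wide on the log2 scale. This limits the differences that could be detected.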

Other observations

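Spread over the libraries differed between TPM and counts for some of the 34 genes in the count table. The highest over the lowest value had a median ratio of 1.34 in TPM, taken over all 38 genes, and of 1.249 in CPM. Becn1 spanned 1.71-fold in TPM and 1.08-fold in CPM, Map1lc3b 1.86-fold and 1.21-fold, and Rb1cc1 2.02-fold and 1.495-fold. Sqstm1 went the other way, at 1.58-fold in TPM and 1.93-fold in CPM, reaching 344.3 CPM for the column of 8 h replicate 14 against 178.8 to 258.2 CPM elsewhere.

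In the TPM table of 8 h replicate 13, Becn1 was at 28.0 TPM against a 1 h mean of 44.1 TPM, a log2 ratio of -0.66. In the count column that this table matches best, the one named 8 h replicate 15, Becn1 was at 118.1 CPM against a 1 h mean of 115.3 CPM. Rb1cc1 was at 15.0 TPM against 28.8 TPM in that table and at 96.8 CPM against 106.6 CPM in that column. With this pair of column and table centred as above, 26 of the 34 genes agreed within 0.1. Another 5 (Tfeb, Rb1cc1, Atg9a, Becn1 and Ctsa) differed by more than 0.3 on the log2 scale.

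The column named 8 h replicate 14, which matches no TPM table, held the highest CPM of the 5 columns for 18 of the 34 genes, against 26.9% of the 7590 genes tested. What that column holds was not tested.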
